A study of Mus musculus with 4 samples.

Results

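The Grb10 region of mouse chromosome 11 was examined in Micro-C data, which record how often stretches of chromatin lie close together after micrococcal nuclease digestion and ligation in place. All pairs of 8 kb bins with both bins between 11000000 and 13000000 of chromosome 11 (GRCm38) were taken. There were 12349 such pairs of 23095428 listed in embryonic stem cells (ESCs) and 10174 of 21005697 listed in cervical motor neurons (MNs). The study asked how PATZ1, a zinc finger protein, takes part in chromatin insulation and genome organization.

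The groups were WT ESCs, PATZ1 KO ESCs, WT MNs and PATZ1 KO MNs, with 1 library each. All came from E14, a mouse ESC line. ESCs were kept in LIF with the MEK and GSK3 inhibitors of the 2i condition, and MNs were derived through embryoid bodies given all-trans retinoic acid and smoothened agonist, with no day of harvest stated. In PATZ1 KO cells Patz1 had been mutated with CRISPR/Cas9 and single clones had been taken, so that a clone and the loss of PATZ1 cannot be told apart. WT cells carried no allele or transgene that the labels name. Contact data hold no expression by which to check the labelled cell types.

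With 1 library per group no difference had a replicate check and no test was possible. Intervals are exact 95% intervals for counting error alone. They leave out the spread between cultures, and contacts that share a bin are not independent. A difference is called past 1.2-fold as a rule of size and not of significance. The deposited columns are numbered and carry no sample name. Number 1 was read as WT and number 2 as PATZ1 KO, since the comparison is named with WT first, and every direction between genotypes rests on that reading. Only pairs seen in both libraries of a cell state are listed. The intervals take no account of that selection, and its effect on the ratios was not tested.

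Grb10 encodes an adaptor protein that binds the insulin and IGF1 receptors and restrains growth signalling. It is an imprinted gene: in most mouse tissues the maternal copy is transcribed from upstream start sites, whereas in neurons the paternal copy is transcribed from start sites further downstream, near a CpG island that is methylated on the maternal copy. The contacts given here are the sum of both alleles, which the lists do not separate. Grb10 spans 11930508 to 12038683 on the minus strand (108176 bases, 14 bins), so that it is read from right to left. To its left, toward lower coordinates, lie Ddc, which encodes aromatic L-amino acid decarboxylase, Fignl1, which encodes an ATPase of DNA repair, and Ikzf1, which encodes the lymphoid transcription factor Ikaros. Further left lie 4930512M02Rik, the spermatogenesis gene Spata48, Zpbp, which encodes a sperm protein, and Vwc2, which encodes a secreted BMP antagonist. To its right, beyond an interval without protein-coding genes, lies Cobl, which encodes an actin nucleator.

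Protein-coding Grb10 transcripts start in 3 bins. The upstream bin (chr11:12032001-12040000) holds the start sites 12037401 and 12038683. The next bin (chr11:12024001-12032000) holds the start sites 12026324, 12026732 and 12027971, and the inner bin (chr11:11968001-11976000) holds the start site 11970642. CpG-rich stretches were searched by sequence along the gene, and the longest lay in the upstream and the next bin. Another, from 11936574 to 11936918 and away from the start sites, held 12 CpG in 345 bases. The one in the upstream bin ran from 12036360 to 12038158 and held 217 CpG in 1799 bases. The one in the next bin ran from 12025411 to 12026964 and held 156 CpG in 1554 bases, with 4 matches of TGCCGC, the letters bound by the imprinting factor ZFP57, against 5 in the upstream one. The start sites 12026324 and 12026732 lie within it.

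The 250 bases before a start site of each bin are shown, because the bins differ in CpG content and the contacts below are taken from them. They are read on the minus strand of GRCm38 from the RefSeq genome, at chr11:12037421-12037670 for the upstream bin (before the RefSeq start 12037420, intronic to transcripts from 12038683), chr11:12026325-12026574 for the CpG island bin (before 12026324, in an intron) and chr11:11970643-11970892 for the inner bin (before 11970642, in an intron). Capitals mark GGGAGGG, a G-rich string of the kind bound by PATZ1 and MAZ, and would mark TGCCGC.
Upstream start: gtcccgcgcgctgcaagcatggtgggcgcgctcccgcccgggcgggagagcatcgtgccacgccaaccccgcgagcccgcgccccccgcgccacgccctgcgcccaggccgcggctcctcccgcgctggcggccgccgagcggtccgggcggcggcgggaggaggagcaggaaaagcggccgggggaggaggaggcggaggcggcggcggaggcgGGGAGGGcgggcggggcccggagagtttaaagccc
CpG island start: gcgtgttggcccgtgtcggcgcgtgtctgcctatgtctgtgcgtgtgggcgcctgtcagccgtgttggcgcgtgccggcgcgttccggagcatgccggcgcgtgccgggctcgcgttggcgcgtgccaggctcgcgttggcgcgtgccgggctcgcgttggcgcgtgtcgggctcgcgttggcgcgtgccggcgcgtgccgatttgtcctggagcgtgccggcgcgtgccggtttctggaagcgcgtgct
Inner start: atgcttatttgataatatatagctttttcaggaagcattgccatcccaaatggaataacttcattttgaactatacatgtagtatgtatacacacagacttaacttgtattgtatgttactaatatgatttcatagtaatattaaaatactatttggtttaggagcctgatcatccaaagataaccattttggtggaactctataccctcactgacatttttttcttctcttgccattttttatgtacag
The upstream stretch held 40 CpG and 1 match of GGGAGGG. The CpG island stretch held 47 CpG, in repeats, and no match of either string. It was the most CpG-rich of that bin, where the 250 bases before 12026732 held 13 CpG and 1 match of GGGAGGG, and those before 12027971 held 8 CpG and no match. The inner stretch held no CpG and no match. On both strands GGGAGGG was present in 19.1% and TGCCGC in 8.59% of the 250 bases before the start of 27025 genes in RefSeq (1 promoter a gene). A match of letters is not a binding site.

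The region held 131025 listed contacts (WT) and 120054 (PATZ1 KO) in ESCs and 75344 (WT) and 81716 (PATZ1 KO) in MNs. A pair at least 16 kb apart held a median of 2 or 3 contacts, so that most values are given for blocks of many bins, and single pairs only where they held more contacts or are named as peaks, with their counts. Each value is the number of contacts observed over the number expected from the decay of contact with distance on chromosome 11 in the same library, and 1 means contact at the chromosome average for that distance. Where 4 values follow each other, the order is WT ESCs, PATZ1 KO ESCs, WT MNs, PATZ1 KO MNs. Whole libraries summed to between 110991835 and 170946673 listed contacts. In the bin of the Patz1 promoter that begins at 3288001, contacts 16 kb to 1 Mb away numbered 281 in WT and 168 in PATZ1 KO ESCs, and 177 in WT and 107 in PATZ1 KO MNs. In the other promoter bin of Patz1 they numbered 348 and 320 in ESCs and 271 and 198 in MNs. The first bin was lower in the column read as PATZ1 KO in both cell states, which checks neither the mutation nor the expression of the gene.

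Grb10 lay at a turn between domains in all 4 libraries. Insulation was scored for each bin as the log2 of the mean contact in a 248 kb square spanning it over the chromosome mean, so that low scores mark boundaries. Of 6021 boundaries of the autosomes and X, 5 were in the region, and 1 of them (chr11:12016001-12024000) lay within Grb10, just left of the CpG island bin. Its score was -0.54 (WT) and -0.63 (PATZ1 KO) in ESCs and -0.95 (WT) and -0.93 (PATZ1 KO) in MNs. Of all boundaries 43.4% had a lower mean score. The boundary bin scored lower in both MN libraries than in both ESC libraries, and at this bin the genotypes lay close together within each cell state. The score was 0.41 lower in MNs than in ESCs in WT and 0.31 lower in PATZ1 KO, where 70.7% and 63.3% of all boundaries differed by more than 0.2 in either direction. The low MN scores were not confined to this bin. In Ddc, bin 11896001 scored 0.85 (WT) and 0.77 (PATZ1 KO) in ESCs and 0.59 and 0.48 in MNs. On the right, bin 12224001 went the other way, with -0.16 and -0.17 in ESCs and 0.43 and 0.65 in MNs.

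Between PATZ1 KO and WT the boundary in Grb10 differed by -0.09 in ESCs (interval -0.20 to 0.02) and by 0.02 in MNs (interval -0.13 to 0.17). The scores of this bin lay within counting error of each other. Neither difference passed 0.2, a size that 11% of boundaries passed in ESCs and 45.2% in MNs. In MNs the sign of the difference changed across the boundary. Scores were -0.76 (WT) and -0.95 (PATZ1 KO) in bin 11984001, and -0.75 (WT) and -0.60 (PATZ1 KO) in bin 12040001. The lowest bin within the gene began at 12000001 in WT ESCs, at 12016001 in PATZ1 KO ESCs and in WT MNs, and at 11992001 in PATZ1 KO MNs. Its place therefore varied over a few bins among the libraries, and with squares of 120 kb and 400 kb the minimum of the mean profile also lay in Grb10, in the bins that begin at 11976001 and 12000001.

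**Figure D1:**
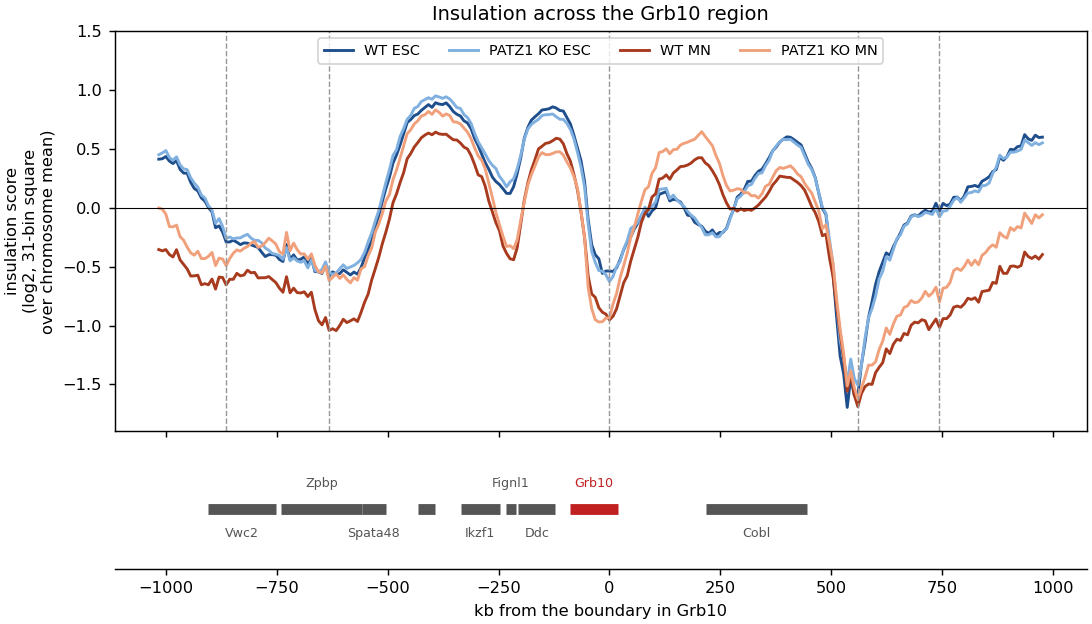
Insulation score (y axis, log2 over the chromosome mean) along the region (x axis, kb from the boundary in Grb10) in the 4 libraries, with boundaries as dashed lines and genes as bars below. All 4 lines dip within Grb10, with -0.54 and -0.63 in ESCs and -0.95 and -0.93 in MNs at the boundary bin, and dip furthest right of Cobl.

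The other boundaries framed the neighbours of Grb10. The strongest lay right of Cobl (chr11:12576001-12584000), with scores of -1.59 (WT) and -1.51 (PATZ1 KO) in ESCs and -1.69 (WT) and -1.63 (PATZ1 KO) in MNs. Only 9.13% of all boundaries had a lower mean score. The boundary at 12760001 lay in sequence without protein-coding genes. It scored -0.03 (WT) and -0.08 (PATZ1 KO) in ESCs and -1.02 (WT) and -0.80 (PATZ1 KO) in MNs. The low MN scores were not confined to this bin. They were -1.03 (WT) and -0.75 (PATZ1 KO) in bin 12736001, and -0.94 and -0.68 in bin 12776001.

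On the left, a boundary in Vwc2 (bin 11152001) scored -0.29 and -0.26 in WT and PATZ1 KO ESCs and -0.65 and -0.49 in the MNs. A boundary in Zpbp (bin 11384001) scored -0.58, -0.55, -1.04 and -0.62 in the same order. The Zpbp boundary scored higher in PATZ1 KO than in WT MNs by 0.42, above 98.2% of boundaries, and differed by 0.03 in ESCs. The MN difference was not confined to this bin. Scores were -0.61 (WT) and -0.28 (PATZ1 KO) in bin 11256001, and -0.80 (WT) and -0.50 (PATZ1 KO) in bin 11464001. The boundaries at 11384001, 12016001 and 12576001 divided the sequence around Grb10 into a left domain of 624 kb and a right domain of 552 kb. The left domain holds Spata48, 4930512M02Rik, Ikzf1, Fignl1, Ddc and most of Grb10. The right domain holds the start sites of the CpG island and upstream bins together with Cobl. Within the left domain the MN scores dipped at Fignl1 (bin 11800001), to -0.44 (WT) and -0.35 (PATZ1 KO), against 0.18 and 0.25 in ESCs. The mean of the 4 libraries did not pass the boundary rule there, but a square of 120 kb gave a boundary in that bin.

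Contacts within the left domain were above expectation in every library, at 1.40 (WT) and 1.42 (PATZ1 KO) in ESCs and 1.19 (WT) and 1.32 (PATZ1 KO) in MNs. Contacts within the right domain were 1.17, 1.16, 1.07 and 1.22. Contacts between both domains were 1.13, 1.07, 1.05 and 1.10, below the values within the left domain in each library. Contacts across the boundary right of Cobl were 0.607, 0.635, 0.403 and 0.436 of expectation.

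**Figure D2:**
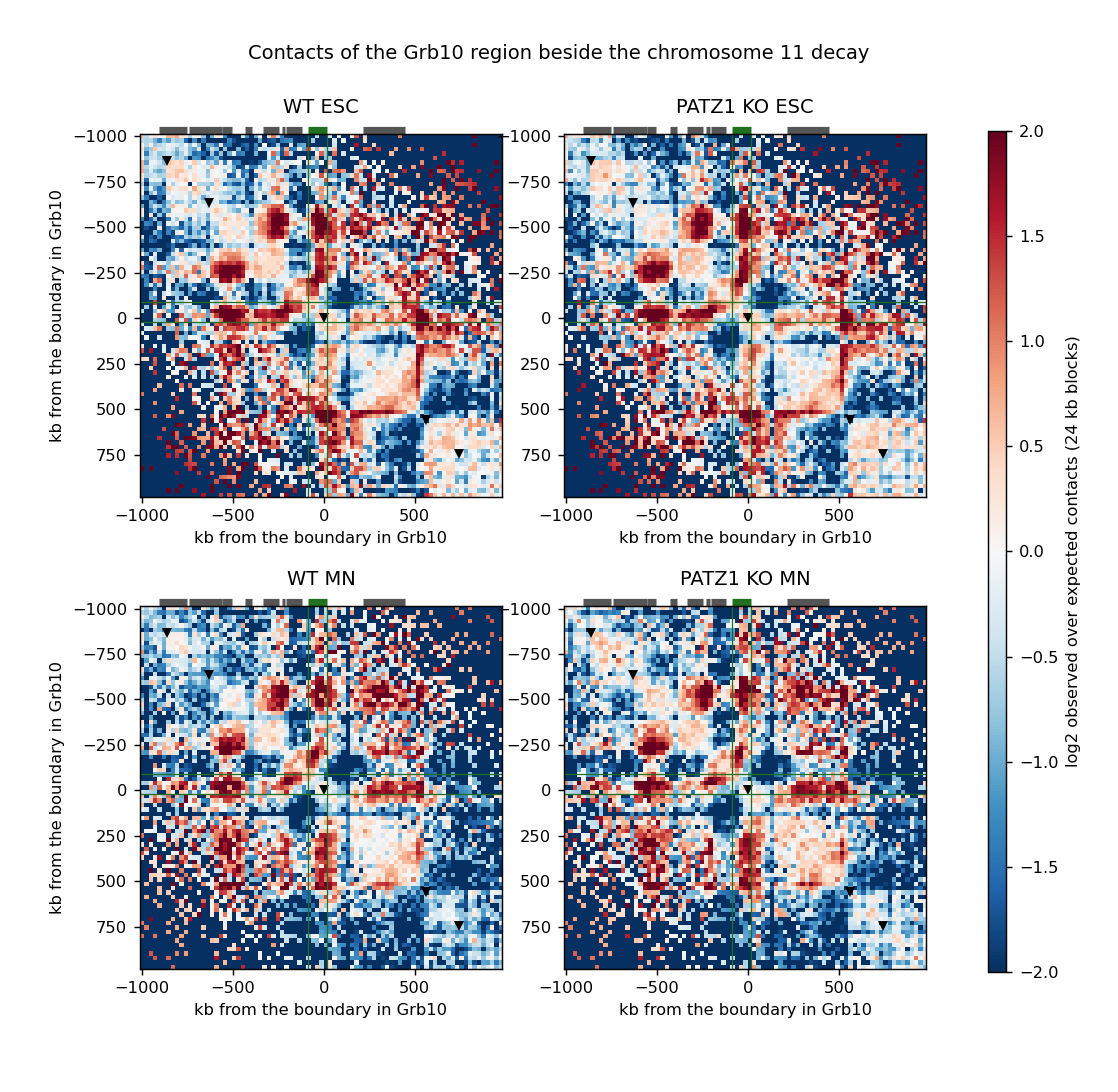
Log2 observed over expected contacts in blocks of 24 kb (colour, cut at -2 and 2) for each library, with both axes in kb from the boundary in Grb10, green lines at the ends of Grb10, triangles at boundaries and genes as bars above. In all 4 maps Grb10 crosses as a stripe of red blocks on its left (Ddc, Fignl1 and Spata48), and the blocks with Cobl are redder in MNs, where contact of Grb10 and Cobl was 2.10 and 2.35 of expectation, than in ESCs, where it was 1.39 and 1.33.

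The direction of contacts turned along the gene. Among the contacts of a bin 16 kb to 496 kb away, the share that reached right, toward Cobl, was counted for each of the 14 Grb10 bins, a measure chosen after the map was seen. In the inner start bin this share was 20.5% in WT ESCs (170 of 831 contacts, 95% interval 17.8 to 23.4), 18.7% in PATZ1 KO ESCs, and in MNs 23.3% (WT) and 18.5% (PATZ1 KO). In the upstream start bin it was 57.6% in WT ESCs (288 of 500 contacts, interval 53.1 to 62.0), 55.9% in PATZ1 KO ESCs, and in MNs 64.9% (WT) and 67.3% (PATZ1 KO). In all 4 libraries most contacts of the inner start bin reached left and most of those of the upstream bin reached right. The share of the upstream bin was higher in MNs, and in PATZ1 KO the intervals did not overlap (50.9 to 60.8 in ESCs, 61.3 to 72.9 in MNs).

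The libraries differed more in the middle. In the boundary bin the share was 45.0%, 43.9%, 50.6% and 60.8% in WT ESCs, PATZ1 KO ESCs, WT MNs and PATZ1 KO MNs. In the CpG island bin it was 51.6%, 57.2%, 59.9% and 65.9%. The share toward Cobl was thus the highest in PATZ1 KO MNs in both bins, with a lower limit of 55.6% in the boundary bin against an upper limit of 55.7% in WT MNs.

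**Figure D3:**
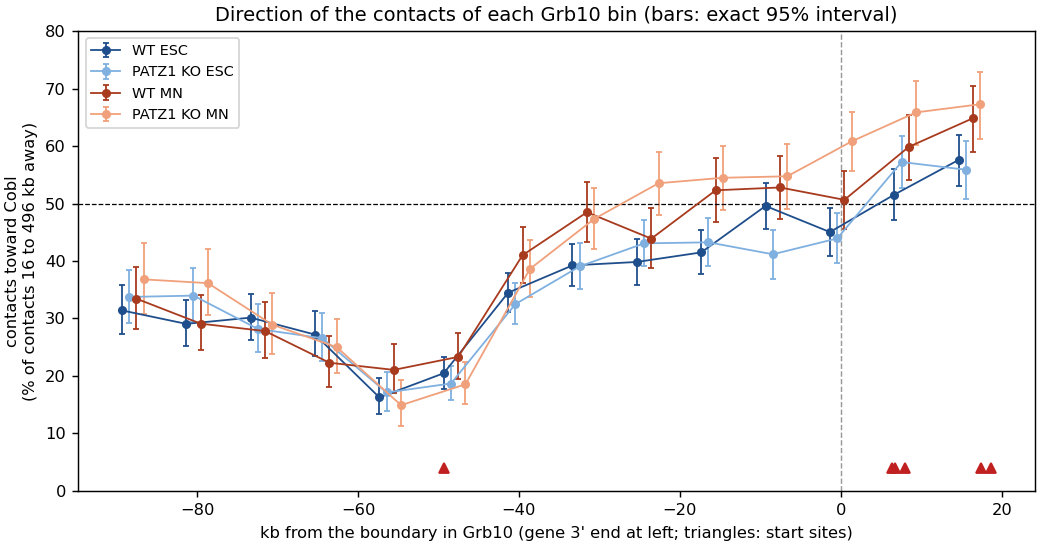
Share of the contacts of each Grb10 bin that reach toward Cobl (y axis, percent of contacts 16 kb to 496 kb away) against its place in the gene (x axis, kb from the boundary), with exact 95% intervals and triangles at start sites. The share falls to its lowest near the inner start site and rises in all 4 libraries to between 55.9% and 67.3% in the upstream start bin.

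The contacts of Grb10 with Ikzf1 and with Cobl differed between ESCs and MNs in both genotypes, which did not hold for every neighbour. With Ikzf1, contacts numbered 699 (WT) and 704 (PATZ1 KO) in ESCs and 269 (WT) and 233 (PATZ1 KO) in MNs, which is 2.12, 2.36, 1.27 and 1.19 of expectation. The MN values lay below both ESC values, with a log2 ratio of MN over ESC of -0.74 in WT (interval -0.94 to -0.53) and -0.98 in PATZ1 KO (interval -1.20 to -0.77). Among 11013 pairs of genes across the genome, 1.48% in WT and 0.663% in PATZ1 KO had a lower ratio. This set of pairs was added after values of the region were seen, and took genes of at least 20 kb that lay up to 496 kb apart with at least 100 contacts in each library. Between genotypes, the PATZ1 KO/WT ratio was 0.16 in ESCs (interval 0.002 to 0.31) and -0.09 in MNs (interval -0.35 to 0.17), both short of 1.2-fold.

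With Cobl the order was the opposite. Contacts of Grb10 with Cobl numbered 726, 643, 738 and 777 in WT ESCs, PATZ1 KO ESCs, WT MNs and PATZ1 KO MNs, or 1.39, 1.33, 2.10 and 2.35 of expectation. The log2 ratio of MN over ESC was 0.60 in WT (interval 0.45 to 0.75) and 0.82 in PATZ1 KO (interval 0.66 to 0.97). Such a gain was common: 49.9% of gene pairs in WT and 42.9% in PATZ1 KO were higher in MNs past 1.2-fold, while 10.4% and 13.4% were lower. With only those pairs of bins that are listed in both cell states, the ratio was 0.30 in WT and 0.46 in PATZ1 KO. Between genotypes the ratio of PATZ1 KO over WT for Grb10 by Cobl was 0.16 in MNs (interval 0.01 to 0.30), with -0.01 under scaling to library totals, and -0.06 in ESCs (interval -0.21 to 0.10). Contacts between Grb10 and the gene-free interval before Cobl went the other way, from 0.893 and 0.868 of expectation in WT and PATZ1 KO ESCs to 0.609 and 0.703 in MNs. Those with the interval from Cobl to the boundary right of it were 3.92, 3.42, 2.74 and 3.27 of expectation. Their ratio of MN over ESC was -0.52 in WT (interval -0.75 to -0.28) and -0.07 in PATZ1 KO (interval -0.30 to 0.16).

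Contacts with Ddc numbered 1719, 1385, 1171 and 938, or 2.45, 2.26, 2.52 and 2.26 of expectation, with a ratio of MN over ESC of 0.04 in WT (interval -0.07 to 0.15) and 0.004 in PATZ1 KO (interval -0.12 to 0.12). The WT ratio was 0.17 with the decay of all autosomes (interval 0.06 to 0.28), and the PATZ1 KO ratio was -0.12 with scaling to library totals (interval -0.24 to 0.002). Contacts with Fignl1 were 4.28, 3.80, 2.99 and 3.29 of expectation and lower in MNs in WT (-0.52, interval -0.72 to -0.32). In PATZ1 KO the ratio was -0.21, short of 1.2-fold, with an interval from -0.42 to just under 0. It passed 1.2-fold at -0.39 with scaling to library totals, and at -0.30 both with pairs listed in both cell states and with gene bodies extended by 1 bin. Between genotypes, Grb10 by Ddc was lower in PATZ1 KO by -0.12 in ESCs (interval -0.22 to -0.01) and by -0.15 in MNs (interval -0.28 to -0.03), both short of 1.2-fold. A lower ratio was held by 32.8% (ESCs) and 42.0% (MNs) of gene pairs, and the MN ratio was -0.31 with the decay of all autosomes and 0.02 with pairs of at least 10 contacts alone. Grb10 by Fignl1 had ratios of PATZ1 KO over WT of -0.17 in ESCs (interval -0.34 to -0.005) and 0.14 in MNs (interval -0.10 to 0.37). Both were short of 1.2-fold. In MNs this ratio was -0.11 with gene bodies extended by 1 bin and -0.10 with scaling to library totals. The blocks of Ddc and Fignl1 share the bin that begins at 11808001. For pairs of neighbours that span Grb10, contacts were 1.27, 1.15, 1.14 and 1.09 of expectation (Ddc by Cobl) and 1.32, 1.18, 1.28 and 1.31 (Ikzf1 by Cobl).

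Contacts with Spata48, in the far part of the left domain, were the highest of Grb10 for their distance. They numbered 384, 351, 255 and 311, or 4.76, 4.61, 4.30 and 5.40 of expectation, above 99.0% to 99.9% of gene pairs depending on the library. Contacts with 4930512M02Rik, which lies between Spata48 and Ikzf1, were 1.41, 1.33, 0.78 and 0.921 of expectation. Contacts with Vwc2 were 0.803, 0.955, 1.42 and 1.56 of expectation, on 59 to 107 contacts, and those with Zpbp were 1.58, 1.63, 1.65 and 1.97. Of the 8 other genes of the region, 2 were higher and 3 lower in contact with Grb10 in WT MNs than in WT ESCs past 1.2-fold, and in PATZ1 KO cells 3 were higher and 2 lower. The share of gene pairs was 49.9% higher and 10.4% lower in WT, and 42.9% and 13.4% in PATZ1 KO. Vwc2 and 4930512M02Rik had fewer than 100 contacts with Grb10 in some libraries and so were not in that set of pairs.

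**Figure D4:**
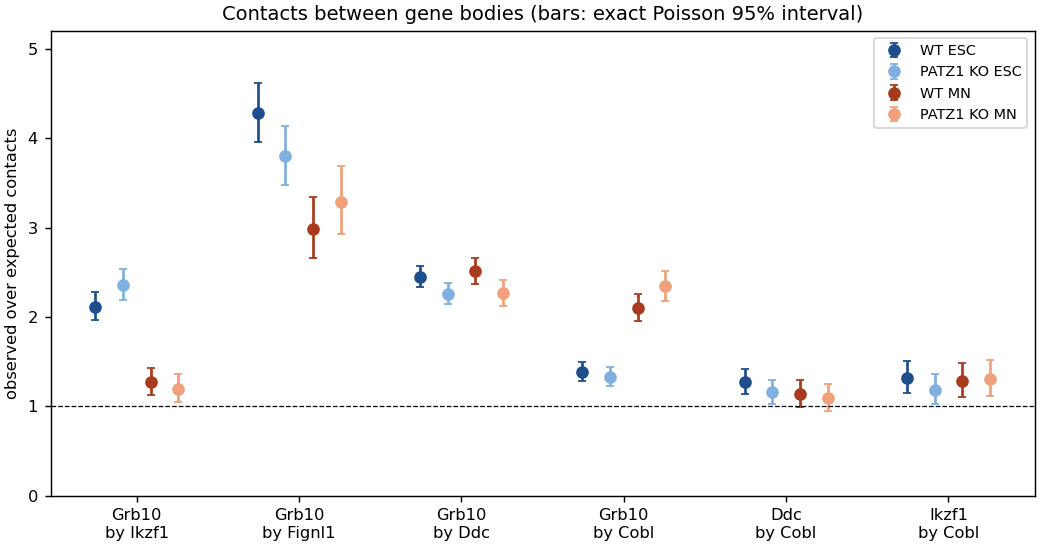
Observed over expected contacts (y axis) between gene bodies (x axis) in each library, with exact Poisson 95% intervals for counting error and a dashed line at 1. Grb10 by Ikzf1 lies at 2.12 and 2.36 in ESCs and 1.27 and 1.19 in MNs, whereas Grb10 by Cobl lies at 1.39 and 1.33 in ESCs and 2.10 and 2.35 in MNs.

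The right end of Grb10, which holds the CpG island and upstream start bins, and the 11 bins left of the boundary bin were then set apart, a division made after the boundary was seen. The left bins met Ddc at 2.70, 2.53, 2.74 and 2.50 of expectation in WT ESCs, PATZ1 KO ESCs, WT MNs and PATZ1 KO MNs. The right end met Ddc at 1.05, 0.598, 1.12 and 0.896, on 73, 37, 50 and 36 contacts. The right end met Cobl at 1.75, 1.86, 2.86 and 2.90, above the left bins at 1.27, 1.22, 1.78 and 2.05. The right end thus met Ddc less and Cobl more than the left bins in every library. The division was placed at a minimum of these same contacts, so this order is no separate evidence of a boundary. Between the right end and Ddc, PATZ1 KO was lower than WT in ESCs by a log2 ratio of -0.81 (interval -1.42 to -0.22), and the ratio in MNs was -0.32 (interval -0.98 to 0.33).

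Contacts of the promoter bins with partners 16 kb to 1 Mb away did not pass 1.2-fold between PATZ1 KO and WT in any of the 3 bins, in ESCs or in MNs. The share of all 26171 promoter bins past 1.2-fold was 10.3% in ESCs and 39.7% in MNs. The upstream bin held 599 contacts (WT) and 484 (PATZ1 KO) in ESCs and 313 (WT) and 315 (PATZ1 KO) in MNs, or 1.34, 1.22, 0.999 and 1.11 of expectation. The PATZ1 KO/WT log2 ratio was -0.14 in ESCs (interval -0.32 to 0.03) and 0.15 in MNs (interval -0.08 to 0.38). Both intervals included 0.

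The CpG island bin held 613, 581, 358 and 352 contacts, or 1.38, 1.46, 1.14 and 1.24 of expectation, with ratios of 0.09 in ESCs (interval -0.08 to 0.26) and 0.11 in MNs (interval -0.10 to 0.33). The inner start bin had the most contacts, at 897, 739, 487 and 506, or 2.01, 1.86, 1.55 and 1.78 of expectation. Its ratio was -0.11 in ESCs (interval -0.26 to 0.03) and 0.19 in MNs (interval 0.01 to 0.38). All 3 bins were higher in PATZ1 KO than in WT MNs by 0.11 to 0.19, in a region that was itself higher. With scaling to library totals the upstream, CpG island and inner bins turned to -0.08, -0.11 and -0.03 in MNs, and with pairs of at least 10 contacts alone the upstream bin was at -0.20. After subtraction of the line fitted to the ratios of all promoter bins on their GC content, the upstream and CpG island bins were at 0.38 and 0.32, both past 1.2-fold, and the inner bin at 0.18.

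Between cell states all 3 promoter bins had lower contact in WT MNs than in WT ESCs, by -0.43 (upstream), -0.27 (CpG island) and -0.37 (inner), each past 1.2-fold. The CpG island bin fell short of it at -0.13 with the decay of all autosomes, -0.15 with scaling to library totals, -0.18 with pairs listed in both cell states and -0.09 with pairs of at least 10 contacts alone, and the inner bin at -0.24 and -0.26 under the first 2 of these. This direction was the less common one, with 13.5% of promoter bins lower and 43.1% higher past 1.2-fold. In PATZ1 KO the same differences were -0.14, -0.24 and -0.07, and none passed 1.2-fold, against 38.5% of promoter bins in either direction. The CpG island bin passed it in PATZ1 KO at -0.28 with scaling to library totals, -0.35 minus the line on GC content and -0.69 with pairs of at least 10 contacts alone (interval -1.18 to -0.22). The difference between genotypes in this change was not tested. The whole region was also lower in MNs than in ESCs, by -0.29 in WT and -0.11 in PATZ1 KO. Its 16 promoter bins, the 3 of Grb10 among them, ran from -0.43 to -0.007 in WT, with a median of -0.17. In WT 6 of the 16 were lower past 1.2-fold and none was higher.

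Among partner bins with at least 10 contacts in every library, the inner start bin was highest at 2 adjacent bins. The Ddc bin that begins at 11816001 held 55, 62, 31 and 24 contacts with it, or 16.9, 21.4, 14.5 and 12.7 of expectation over 152 kb. The bin that begins at 11808001, which overlaps Fignl1 and Ddc, held 56, 34, 32 and 32, or 17.9, 12.4, 16.1 and 17.7 over 160 kb. The first was the higher in PATZ1 KO ESCs and in the mean of the libraries, and the second in the other 3 libraries. On fewer contacts, single bins that overlap Spata48 were higher in 2 libraries, at 18.0 in WT ESCs (bin 11496001, 14 contacts) and 18.1 in PATZ1 KO MNs (bin 11456001, 9 contacts). The pair with 11816001 was the first of 16 loop-like pairs of the region, which are local maxima of at least 2 times the expected and 1.5 times the surrounding ring of bins, with at least 40 contacts in all. Only 3 of 4837 pairs 136 kb to 168 kb apart with at least 40 contacts in all had a higher mean. The median of these pairs was 3.84 of expectation, and the ranked pair had been picked as the highest of the region. The 4 bins at this corner, chr11:11968001-11984000 with chr11:11808001-11824000, held 163, 132, 95 and 74 contacts, with ratios of PATZ1 KO over WT of -0.12 in ESCs (interval -0.46 to 0.22) and -0.21 in MNs (interval -0.67 to 0.25). The corner was therefore present in each library, at 10.3 times the expected contact or more, and a difference between genotypes within those intervals was not detectable at this depth.

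**Figure D5:**
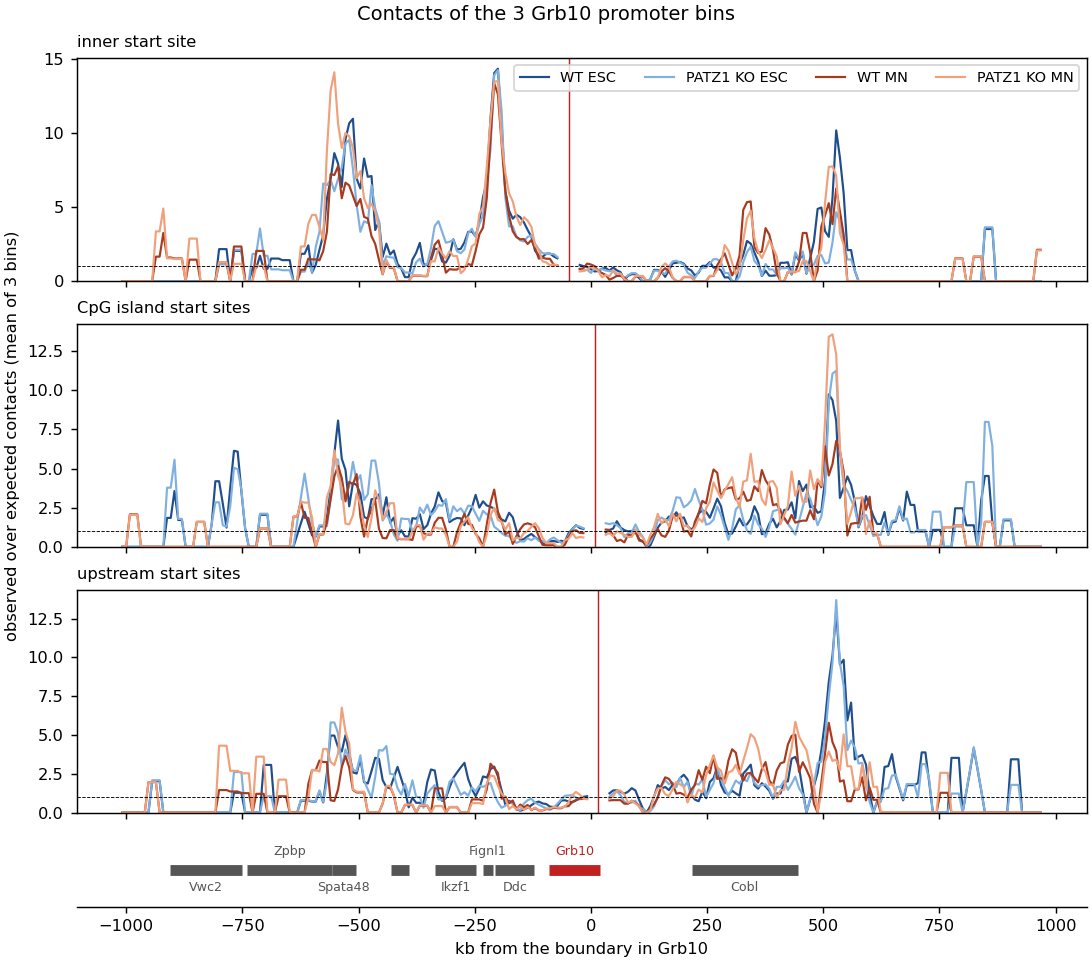
Observed over expected contacts (y axis, running mean of 3 bins) of the 3 Grb10 promoter bins (red lines) along the region (x axis, kb from the boundary in Grb10) in the 4 libraries, without pairs under 16 kb. The inner start bin has a peak at the end of Ddc next to Fignl1 in every library, where the highest single bin reached 16.1 to 21.4, with a second at Spata48 that is as high in PATZ1 KO MNs. The CpG island and upstream bins have raised contact near Spata48 and right of Cobl, on 6 to 24 contacts. Right of Cobl (12520001 to 12544000) the inner bin held 5, 2, 7 and 10 contacts, with 1.26 of expectation in PATZ1 KO ESCs.

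The next local maximum of the inner start bin with at least 10 contacts in every library lay in Ddc as well (bin 11880001), at 3.90, 3.84, 2.93 and 5.26 of expectation. The CpG island and upstream bins had no such local maximum at 40 kb or more. Summed over genes, the CpG island bin met Cobl at 1.79, 1.91, 3.03 and 3.13 of expectation and the upstream bin met Cobl at 1.70, 1.82, 2.70 and 2.68. Both start bins were higher with Cobl in MNs than in ESCs, with log2 ratios of 0.76 and 0.67 in WT and 0.72 and 0.56 in PATZ1 KO, and all 4 intervals lay above 0.

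At the 3 bins right of Cobl around a recurrent anchor (12520001 to 12544000, chosen after the values were seen), the CpG island bin had 20, 18, 7 and 20 contacts, or 9.60, 9.15, 4.54 and 13.4 of expectation. The ratio of PATZ1 KO over WT was 1.56 in MNs (interval 0.26 to 3.05) and -0.07 in ESCs (interval -1.07 to 0.92). The upstream bin had 18, 15, 9 and 6 contacts at the same place and did not show this order. These counts are small and were picked among many places, so the difference is given as values alone.

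With Ddc the CpG island bin had 45 contacts (WT) and 19 (PATZ1 KO) in ESCs and 32 (WT) and 25 (PATZ1 KO) in MNs, and the upstream bin had 28, 18, 18 and 11. Both bins had fewer contacts with Ddc in PATZ1 KO than in WT in both cell states. These are the contacts of the right end with Ddc given above, split by bin. The counts are small, and these blocks were added after values were seen. The ratio was -1.07 in ESCs for the CpG island bin (interval -1.93 to -0.27), and the other 3 intervals included 0. With Spata48 the inner start bin had 52, 40, 28 and 45 contacts, or 8.71, 7.10, 6.42 and 10.7 of expectation. It was higher in PATZ1 KO MNs by 0.73 (interval 0.02 to 1.47). The alternative settings were not applied to these blocks of single promoter bins.

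Loop-like pairs shared anchors. The bin of Fignl1 that begins at 11784001 met 3 bins further left (11456001 and 11496001, which overlap Spata48, and 11552001). These pairs were at 5.06 times the expected contact or more in each library, on 7 to 16 contacts. The value of 5.06, with bin 11456001 in WT ESCs, rested on 7 contacts and was 1.33 times its ring. The bin 12528001 met 3 bins of Cobl, on 4 to 27 contacts per library, and the inner start bin of Grb10 met 2 bins of Ddc. Over the 16 pairs the PATZ1 KO/WT log2 ratio ran from -0.78 to 2.03 in ESCs, with a median of 0.02, and from -0.60 to 1.84 in MNs, with a median of 0.23. The highest were 11640001 with 11696001 in ESCs (6 and 21 contacts) and 12104001 with 12160001 in MNs (6 and 19 contacts), neither of which touches Grb10.

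The core of the binding motif of CTCF, the insulator protein of most loop anchors, was searched in the same sequence, on both strands. It was found 4 times in the region, and 2 of these were in anchors of loop-like pairs with the letters below, the motif in capitals with 8 bases on each side.
Fignl1 anchor, minus strand, chr11:11788593-11788605: ttctgttgCCACTAGGGGGCGagcgcctc
Ddc anchor, plus strand, chr11:11820405-11820417: aagtcttcCCACCAGAGGGCAccaaagat
The bins of loop-like pairs held a match in 2 of 22, or 9.09%, against 4.32% of all chromosome 11 bins, and the 14 Grb10 bins held none. GGGAGGG was present in 11 of the 14 Grb10 bins, against 87.4% of chromosome 11 bins. TGCCGC was present in 8 of the 14, against 42.1%.

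Contacts within the Grb10 gene body numbered 1035 (WT) and 929 (PATZ1 KO) in ESCs and 651 (WT) and 537 (PATZ1 KO) in MNs, or 1.10, 1.14, 0.961 and 0.902 of expectation. The PATZ1 KO/WT log2 ratio was 0.04 in ESCs (interval -0.08 to 0.17) and -0.09 in MNs (interval -0.26 to 0.08). Neither passed 1.2-fold, which 12.7% of 5996 gene bodies did in ESCs and 45.2% in MNs. The MN ratio was past 1.2-fold, at -0.28, with the decay of all autosomes in place of chromosome 11, and -0.37 with scaling to library totals. Both MN values were below both ESC values, with log2 ratios of MN over ESC of -0.20 in WT (interval -0.34 to -0.05) and -0.33 in PATZ1 KO (interval -0.49 to -0.18). The latter passed 1.2-fold downward, as 11% of gene bodies did. The 7 gene bodies measured in the region ran from -0.47 to -0.06 in WT and from -0.33 to 0.36 in PATZ1 KO. The WT ratio of Grb10 was -0.09 with the decay of all autosomes (interval -0.23 to 0.06) and -0.05 with scaling to library totals (interval -0.19 to 0.10). It was -0.29, past 1.2-fold, minus the line on GC content. Contacts of Grb10 within 1 bin and over 2 Mb, as measures of how well the bins were sampled, had PATZ1 KO/WT log2 ratios of 0.04 and -0.02 (ESCs) and 0.02 and 0.05 (MNs).

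Among the gene bodies of the region the ratio in MNs was lowest for Grb10. The ratio of PATZ1 KO over WT was 0.58 for Zpbp, 0.40 for Spata48, 0.27 for Vwc2, 0.16 for Cobl, 0.07 for Ikzf1 and 0.02 for Ddc. Of 7 gene bodies measured in the region 3 were higher past 1.2-fold in PATZ1 KO MNs, against 10.7% of all gene bodies, and none was lower, against 34.5%. Of the 7 only Grb10 was put through the alternative settings, where the decay of all autosomes moved it from -0.09 to -0.28. The count of 3 thus holds for the decay of chromosome 11 alone. The bodies of Zpbp and Spata48 share the bin that begins at 11456001. Contacts of Grb10 with Spata48 were also higher in PATZ1 KO MNs, by 0.33 (interval 0.09 to 0.57). This pair was not put through the alternative settings, such as scaling to library totals. Of the 8 partner genes of Grb10 only Spata48 passed 1.2-fold, a size that 3.88% of gene pairs passed in this direction. In ESCs none of the 8 passed it, against 12% of gene pairs in either direction.

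The whole region was higher in PATZ1 KO than in WT MNs by a log2 ratio of 0.18 (interval 0.16 to 0.21), whereas the ESC ratio was 0.003 (interval -0.02 to 0.02). The MN ratio was largest at 16 kb to 32 kb (0.25) and was -0.04 at 1000 kb and beyond. It was below 1.2-fold, which 14.6% of 1230 windows of the same size passed upward and 28.1% in either direction. It depended on the expected value: with the decay of all autosomes in place of chromosome 11 it was 0.04, and with scaling to library totals it was -0.05.

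In MNs the ratio of PATZ1 KO over WT moved with base composition over the genome. Across the 1230 windows its Pearson correlation with GC content was -0.85, and it was 0.06 in ESCs. Across promoter bins it was -0.72 in MNs, and across gene bodies -0.82, as descriptions of a single pair of libraries. The region had a GC content of 40.8%, near the median of 41.4%, and the straight line through the windows gave 0.05 at that GC content. The upstream and CpG island bins had a GC content of 48.5% and 47.8%, where the line through promoter bins gave -0.23 and -0.21, while the measured ratios were 0.15 and 0.11. The ratio of WT MNs over WT ESCs also moved with GC content, with a correlation of 0.63 across promoter bins and 0.73 across gene bodies. For MN over ESC in PATZ1 KO the correlations were 0.15 and -0.39. The WT MN library enters both the ratio of PATZ1 KO over WT in MNs and the WT ratio of MN over ESC. In WT the line through promoter bins gave 0.29, 0.26 and -0.03 for the upstream, CpG island and inner bins, where the measured ratios were -0.43, -0.27 and -0.37. The part of base composition in these results was not tested.

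Other genes named for comparison gave a background for Grb10. Of the related adaptor genes, the single promoter bin of Grb7 had 400, 276, 383 and 234 contacts and ratios of PATZ1 KO over WT of -0.37 in ESCs and -0.57 in MNs, whereas the 3 promoter bins of Grb14 had ratios between -0.04 and 0.001 in ESCs and between -0.01 and 0.15 in MNs. Among 38 promoter bins of 24 other imprinted genes, the median ratio was 0.008 in ESCs and -0.22 in MNs, beside -0.05 and -0.15 over all promoter bins. In MNs 3 of the 38 were higher and 16 lower past 1.2-fold, against 8.06% and 31.6% of all promoter bins. In WT cells 21 of the 38 were higher in MNs than in ESCs past 1.2-fold and 1 was lower, against 43.1% and 13.5% of all promoter bins. All 3 Grb10 bins were lower past 1.2-fold, in a region that was itself lower in WT MNs, at -0.29. The promoters of the receptor genes Insr and Igf1r, whose products GRB10 binds, had a median ratio of 0.11 in ESCs and -0.17 in MNs, and 1 of their 3 bins, in Insr, was lower past 1.2-fold in MNs.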

How the data were processed

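Micro-C contacts were measured in WT and PATZ1 KO ESCs and MNs, with 1 library per group. The authors used the Dovetail Micro-C kit, and the reads were processed to contact matrices by the kit's maker. The build is mm10 per the labels' processing notes, and the aligner is not given in the sources used here. The deposited contact counts are whole numbers for pairs of 8 kb bins, not normalized, joined per cell state with HiCcompare. The deposited adjusted frequencies, a signal normalized jointly against distance by the authors, served as an alternative. The lists also hold the authors' own comparison (log ratios, Z scores and p-values), which was not used.

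Contacts at least 16 kb apart were summed per block and divided by the sum expected from the mean per distance on chromosome 11. Ratios carry exact Clopper-Pearson intervals from the counts, which cover counting error alone, since read pairs are not independent molecules. Intervals of single blocks in the plot are exact Poisson intervals. Backgrounds were 1230 windows of 2 Mb, 5996 protein-coding gene bodies of at least 40 kb and 26171 promoter bins with at least 50 contacts per library, 11013 gene pairs and 6021 boundaries (minima within 5 bins on each side, under -0.2 in the mean of the 4 libraries). The scripts were tested on simulated data. Named genes were Grb10, the protein-coding genes of the region, the Grb7 family, 2 receptors and 27 other imprinted genes, together with the highest partner bins of each promoter (at least 10 contacts in every library). The region, the members and the lists were chosen with earlier results of these data known. Blocks of single promoter bins, the division of Grb10, the direction of contacts, the gene pairs, the loop corner and the line on GC content were added after values were seen. Annotation was GENCODE on GRCm38, and sequences came from RefSeq on GRCm38. Python 3.11.15, numpy 2.4.6, scipy 1.17.1, pandas 2.3.3 and matplotlib 3.10.9 were used.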

Additional observations from a re-analysis of the deposited data

How the results depend on the processing

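No paired analysis was possible because each group held 1 library, and for the same reason no replicate could be left out. Of 250 alternative values of 44 results, 218 were marked the same as the value reported, 32 moved and none reversed. Ratios and scores were the same within the counting interval of the value reported, and numbers of boundaries and loop-like pairs by a rule of size. A reversal was marked only for a difference past 1.2-fold and beyond counting error. The PATZ1 KO over WT ratios of the region, gene body, promoter bins and neighbour genes were not such differences, so that none could be marked reversed. Signs did change, as for the region in MNs, which went from 0.18 to -0.047 with scaling to library totals. With the decay of all autosomes, PATZ1 KO over WT was -0.033 for the region in ESCs, 0.038 for the region in MNs, -0.28 for the Grb10 gene body in MNs and -0.31 for Grb10 by Ddc in MNs, and WT MN over ESC was 0.79 for Grb10 by Cobl. With scaling to library totals and no match on distance, the region was -0.077 in ESCs and -0.047 in MNs, and in MNs the gene body was -0.37, the CpG island bin -0.11, Grb10 by Ddc -0.41 and Grb10 by Cobl -0.014, while WT MN over ESC for the gene body was -0.046. With pairs of at least 10 contacts alone, the MN ratio was 0.23 for the region, -0.20 for the upstream bin and 0.018 for Grb10 by Ddc. With pairs at least 40 kb apart it was 0.16 for the region. With only pairs listed in both cell states, MN over ESC for Grb10 by Cobl was 0.30 in WT and 0.46 in PATZ1 KO, and with gene bodies extended by 1 bin it was 0.65 in PATZ1 KO. Minus the line on GC content, PATZ1 KO over WT in MNs was 0.13 for the region and 0.38 for the upstream bin. The number of boundaries was 8 with a square of 120 kb and 3 with one of 400 kb, and 2 loop-like pairs were left with at least 80 contacts. The line on GC content, the cell-state alternatives for neighbour genes and those for the right end of Grb10 were chosen after seeing the data, and the cause of each move was not tested. Pairs with a median of 2 or 3 contacts limit what single bins can resolve, and lists without pairs absent from 1 library leave out the weakest contacts.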
